A study of Mus musculus with 11 samples.

Results

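The genes Trpv1, Apoc1, Ttc22, Rab4a, Plac9b, Pcsk1 and Gm10324 differed strongly in testes of Irp2-/- mice and lie on other chromosomes than the deleted gene. These 7 genes, of 24411 in the count table, were chosen by the size of their difference in read counts between Irp2-/- and WT testes, so the fits of that difference are given as a description and support nothing further about these genes. They sit on 6 chromosomes, whereas Ireb2, which encodes Irp2, lies on chromosome 9. With the thresholds of the study, an adjusted p (edgeR, Benjamini-Hochberg) under 0.05 and a log2 change of more than 1 either way, 0.173% of the genes tested differed between Irp2-/- and WT testes. Of these, 25 genes lay on other chromosomes than 9, and 18 of the 25 are not among the 7. The 7 hold ranks 1 to 4, 9, 11 and 12 of the 25 by size of change. Rab4a, with the smallest change of the 7, had a log2 fold change of 1.40, and the next gene below it, Mrgpra2b, had -1.36, while Gm10451, Gm2927, Klk1b22, Klk1b21 and Klk1b27 had larger changes than Rab4a and were not chosen.

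Polyadenylated RNA of whole, decapsulated testes from untreated mice aged 20 weeks was sequenced. WT mice (4 samples) were wild-type C57Bl/6J, Irp1-/- mice (4 samples) carried a global knockout of Aco1, the gene of Irp1, and Irp2-/- mice (3 samples) a global knockout of Ireb2. The Irp1-/- line was kept on C57Bl/6J with WT littermates from heterozygous crosses, but the origin and litters of the Irp2-/- mice are not given in the sources used here, so the Irp2-/- genotype and the mouse line that carried it cannot be told apart. All values are bulk measurements, in which fewer cells of a type and less RNA per cell cannot be told apart.

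Irp1 and Irp2 are RNA-binding proteins that hold on to iron-responsive elements, short hairpins in the mRNAs of ferritin, the transferrin receptor and other iron genes, when iron is scarce. Bound upstream of the coding sequence they block translation, and bound downstream of it they protect the mRNA from decay. None of the 7 genes is a textbook target of this system. Pcsk1 encodes prohormone convertase 1, a protease that cleaves prohormones in neuroendocrine cells. Trpv1 encodes the cation channel that opens to heat and capsaicin in sensory neurons. Apoc1 encodes a small apolipoprotein of circulating lipoproteins, and Rab4a a small GTPase that returns receptors, the transferrin receptor among them, from early endosomes to the cell surface. Ttc22 is named for the tetratricopeptide repeats of its protein, Plac9b for its relation to a placenta-specific transcript, and Gm10324 is a gene model with no other name.

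Promoter sequence is shown for Plac9b beside its near copy Plac9a, and for Pcsk1, the gene with the largest change. For the Plac9 pair it shows how alike they are around the transcript start, whereas their reads come from the transcripts. RefSeq promoters (GRCm38.p6, the mm10 build, 250 bases before to 50 after a transcript start) were found for 5 of the 7 genes. The windows lie at chr14:26182302-26182601 on the minus strand for Plac9b, at chr14:25902844-25903143 on the minus strand for Plac9a, and at chr13:75089607-75089906 on the plus strand for Pcsk1. Capitals in the Plac9 pair mark the longest run of bases that both windows share, 222 of 300 bases, which begins at position 79 of the Plac9b window and position 1 of the Plac9a window. The run starts at the first base of the Plac9a window and reaches the last base of the Plac9b window. The windows are thus offset, and the run fills their whole overlap at that offset. Bases outside it had no counterpart in the other window and were not compared. Capitals in Pcsk1 mark TGACGTCA at position 173, the palindromic cAMP response element, and ACGTG at position 203. The Pcsk1 window lies wholly inside the span of the gene given below, as does the window of Gm10324. The transcript starts used for them are thus not the outermost starts of these genes.
Plac9b: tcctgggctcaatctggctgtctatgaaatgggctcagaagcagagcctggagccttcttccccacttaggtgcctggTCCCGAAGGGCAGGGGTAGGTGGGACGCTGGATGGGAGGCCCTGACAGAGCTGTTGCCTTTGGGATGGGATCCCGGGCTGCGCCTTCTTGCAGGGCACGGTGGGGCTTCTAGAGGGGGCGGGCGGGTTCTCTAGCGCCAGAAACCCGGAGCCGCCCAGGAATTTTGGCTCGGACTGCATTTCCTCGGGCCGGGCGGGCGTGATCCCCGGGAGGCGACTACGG
Plac9a: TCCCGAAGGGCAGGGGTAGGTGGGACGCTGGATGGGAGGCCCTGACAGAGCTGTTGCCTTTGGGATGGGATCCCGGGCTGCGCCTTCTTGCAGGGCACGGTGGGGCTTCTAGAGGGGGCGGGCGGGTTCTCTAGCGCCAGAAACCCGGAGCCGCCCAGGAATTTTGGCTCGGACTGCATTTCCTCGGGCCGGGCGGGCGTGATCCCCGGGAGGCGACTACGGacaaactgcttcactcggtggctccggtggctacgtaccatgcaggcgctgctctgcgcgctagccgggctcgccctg
Pcsk1: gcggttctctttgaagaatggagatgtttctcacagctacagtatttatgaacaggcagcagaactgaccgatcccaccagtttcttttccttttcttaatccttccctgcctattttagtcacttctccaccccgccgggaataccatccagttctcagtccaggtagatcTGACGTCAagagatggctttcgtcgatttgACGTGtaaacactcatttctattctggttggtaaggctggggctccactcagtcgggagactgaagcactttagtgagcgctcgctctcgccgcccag

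Each promoter was searched on both strands for 5 motifs. TGACGTCA was found in the Pcsk1 window and in 1.79% of all 32851 promoters, and ACGTG was found in the Pcsk1 window, without overlap with it, and in 19.6% of all. The Trpv1 and Gm10324 windows each held CCAAT, as did 37.4% of all promoters, and the Plac9b and Plac9a windows each held TGACNNNGC, as did 12.4% of all. No window of the 5 genes held TATAAA (13.6% of all), and the Ttc22 window held none of the motifs. GC content was 49.3% in the Pcsk1, 51.7% in the Trpv1, 52.0% in the Gm10324, 59.3% in the Ttc22 and 65.0% in the Plac9b window, beside a median of 52.7% over all promoters. These matches are letters in a window and were not tested as binding sites.

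Transcripts were also searched on the sense strand for a loop of the iron-responsive element kind, a C, 5 stem bases, the 6-base loop CAGTGN and then 5 bases that pair with the stem, G with T included. Only protein-coding transcripts were searched. None of the 7 genes held a match in these, beside 1.34% of 21877 protein-coding genes (294 genes). Among genes with known elements, the same search gave 1 match each in Fth1, Ftl1, Slc40a1 and Alas2 and 4 distinct matches in Tfrc. Whether these matches are the known elements was not checked. The search gave none in Epas1, which also has a known element, so it misses elements of other shapes.

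The knockout labels were first checked on the targeted genes. Ireb2 had 62.0, 61.8 and 62.8 CPM (reads of a gene relative to the library total, scaled by the trimmed mean of M values, TMM) in the Irp2-/- testes, against 131 to 144 CPM in WT and 125 to 145 CPM in Irp1-/- testes. No Irp2-/- testis reached the other groups, and the mean was 44.5% of that in WT (log2 fold change -1.16, SE 0.05, adjusted p = 2.84e-13, edgeR). For Aco1 the 4 Irp1-/- testes had 8.58 ± 0.622 CPM (SD), the 4 WT testes 11.8 ± 1.37 CPM and the 3 Irp2-/- testes 11.8 ± 1.63 CPM, and Irp1-/- was lower than WT by edgeR (adjusted p = 0.0158). Total counts per sample lay between 15902473 and 22451417.

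Pcsk1 showed the largest difference of the 7 and was close to absent from the Irp2-/- libraries. The gene, on chromosome 13 from 75089420 to 75134861 (plus strand), had 0, 0 and 1 counts in the 3 Irp2-/- testes. The WT testes had 19, 15, 18 and 10 counts and the Irp1-/- testes 19, 15, 25 and 22 counts. In CPM, WT testes had 1.06, 0.932, 1.03 and 0.553, a mean of 0.896 ± 0.235 CPM (SD, n = 4), and Irp1-/- testes 1.07 ± 0.312 CPM (SD, n = 4). The groups did not overlap, and a single count in all marks the level in Irp2-/- testes. Over the summed counts, WT exceeded Irp2-/- by a ratio of 54.4, with a 95% counting interval of 9.42 to 2180, and Irp1-/- exceeded Irp2-/- by a ratio of 63.9, with an interval of 11.1 to 2550. These intervals cover counting error only, as reads without molecular identifiers are not independent molecules. The fitted log2 fold change of -5.28 rests on the prior count that edgeR adds, and moved between -7.07 and -4.77 when a replicate was left out.

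Gm10324, on chromosome 13 from 66110374 to 66123709 (plus strand), had the next largest change. Each Irp2-/- testis had 3 counts (0.134, 0.154 and 0.158 CPM). The WT testes had 23, 32, 31 and 28 counts, or 1.29, 1.99, 1.78 and 1.55 CPM, and the Irp1-/- testes 1.62, 1.17, 1.25 and 1.82 CPM. All Irp2-/- values lay below the lowest of the other groups. The fitted log2 fold change against WT was -3.42 (SE 0.38), and the ratio of WT to Irp2-/- over summed counts was 11.1 (95% counting interval 5.66 to 24.9). The sequence searched was its 1 GENCODE transcript, from 66119547 to 66122836, which is shorter than the RefSeq span above. Which model the counting used is not known. Of the 50-base stretches in this transcript, 60.3% also occurred in transcripts of 20 other genes, most often Gm19428 (39.7%). By the same symbol, 1 of those 20 genes is in the count table. Reads could thus be split in the counting with that 1 gene, and how reads of the others were counted is not known. The level of Gm10324 is uncertain to that extent.

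Trpv1, on chromosome 11 from 73234149 to 73261322 (plus strand), was the third in size. Its values were 0.356, 0.923 and 0.684 CPM in the Irp2-/- testes (8, 18 and 13 counts). In WT testes they were 4.98, 5.65, 5.17 and 5.59 CPM, and in Irp1-/- testes 4.03, 4.27, 5.99 and 4.96 CPM. The lowest WT or Irp1-/- testis was well above the highest Irp2-/- testis. Irp2-/- testes averaged 0.654 ± 0.285 CPM (SD, n = 3) and WT testes 5.35 ± 0.324 CPM (SD, n = 4), with a fitted log2 fold change of -3.04 (SE 0.23) or 8.24-fold. None of the 50-base stretches of Trpv1 occurred in another gene.

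Apoc1, on chromosome 7 from 19689480 to 19692659 (minus strand), was the gene of the 7 with the highest level per length in WT testes. It had 3.25, 3.13 and 4.58 CPM in Irp2-/-, 11.1, 9.63, 9.31 and 8.63 CPM in WT, and 12.8, 11.7, 11.8 and 12.25 CPM in Irp1-/- testes. The 3 groups did not overlap, with Irp2-/- lowest and Irp1-/- highest. The fitted change in Irp2-/- against WT was -1.41 on the log2 scale (SE 0.14), or 2.65-fold. No 50-base stretch of Apoc1 was shared with another gene.

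Plac9b, on chromosome 14 from 26167316 to 26182351 (minus strand), had 1.29, 0.820 and 1.74 CPM in the Irp2-/- testes. WT testes had 4.87, 4.04, 3.97 and 2.16 CPM and Irp1-/- testes 3.71, 5.04, 4.89 and 4.27 CPM. The lowest WT sample, replicate 4, came nearest to the Irp2-/- samples but stayed above them. The fitted log2 fold change was -1.54 (SE 0.27), or 2.92-fold. Plac9a, the near copy on the same chromosome from 25888403 to 25902893, holds 96.6% of the 50-base stretches of Plac9b, so that most 50-base reads of the pair cannot be placed on either copy alone. Plac9a itself had 2.76, 3.02 and 5.58 CPM in Irp2-/- testes while its WT values were 6.94, 9.44, 7.99 and 8.52 CPM (fitted log2 fold change -1.13, SE 0.21). The sum of the pair does not depend on how reads were split between these copies, but Gm9780, which is not in the count table, also shares 77.0% of the 50-base stretches of Plac9a. The sum was 4.05, 3.85 and 7.31 CPM in Irp2-/- testes, against 11.8, 13.5, 12.0 and 10.7 CPM in WT and 11.5 to 12.8 CPM in Irp1-/- testes, again with no overlap.

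Rab4a and Ttc22 were the 2 genes that were higher in Irp2-/- testes. Rab4a, on chromosome 8 from 123805846 to 123835291 (plus strand), had 10.55, 10.7 and 10.7 CPM in Irp2-/- testes, 3.30, 4.22, 4.77 and 3.93 CPM in WT testes and 5.65, 4.41, 4.24 and 5.47 CPM in Irp1-/- testes. Every Irp2-/- testis was above every other testis. The fitted change was 1.40 on the log2 scale (SE 0.12), or 2.63-fold. The coefficient of variation among the 3 Irp2-/- samples was 0.8%, below the 6.8% that counting error alone gives. Rab4b, a separate gene for a related GTPase, averaged 30.0 ± 5.27 CPM in the 3 Irp2-/- and 30.8 ± 2.88 CPM in the 4 WT testes (SD), with a log2 fold change of -0.03 (95% interval -0.27 to 0.20, adjusted p = 0.97, edgeR). Of the 50-base stretches of Rab4b, 58.1% also occurred in other genes, most often Gm21983 (56.0%). The exons of Gm21983 overlap those of Rab4b on the same strand and it is not in the count table, so the level of Rab4b is uncertain to that extent.

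Ttc22, on chromosome 4 from 106622449 to 106640196 (plus strand), was near the limit of detection outside Irp2-/- testes. It had 2, 6, 9 and 3 counts in WT and 3, 11, 5 and 4 counts in Irp1-/- testes, but 36, 31 and 29 counts in Irp2-/- testes. In CPM the Irp2-/- testes had 1.60, 1.59 and 1.53, against 0.112, 0.373, 0.517 and 0.166 in WT. No sample of another group reached an Irp2-/- sample. The fitted log2 fold change was 2.42 (SE 0.36), or 5.36-fold. As for Rab4a, the Irp2-/- samples varied by less (2.63%) than counting error gives (17.7%).

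**Figure D1:**
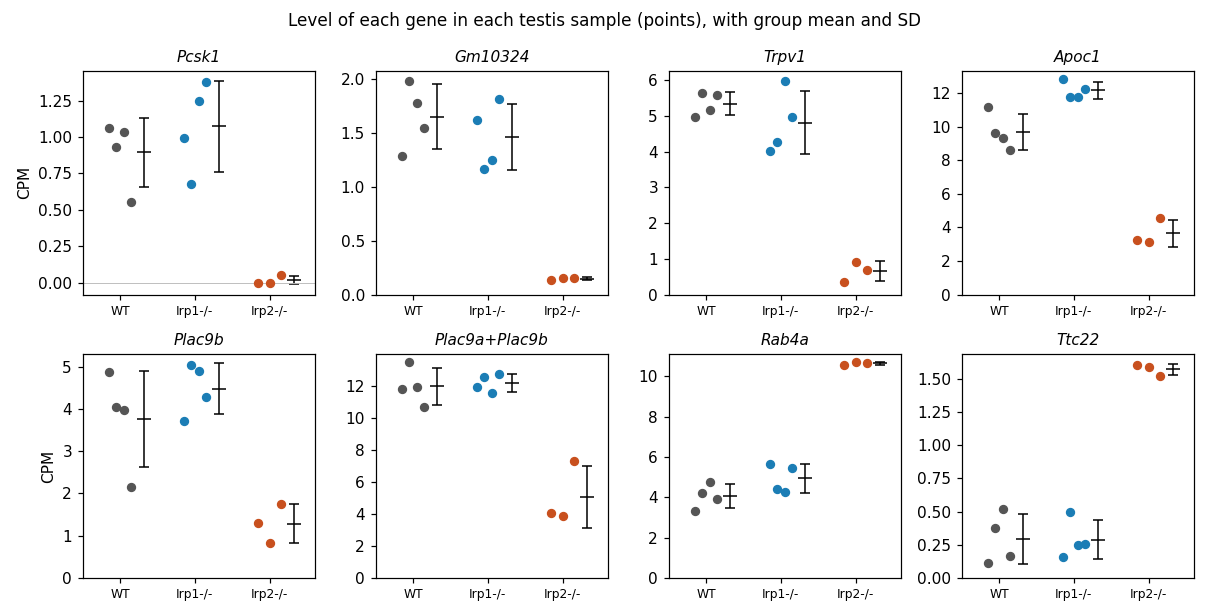
Level of each of the 7 genes, and of the sum of Plac9a and Plac9b, in CPM (linear axes from 0) in each WT (n = 4), Irp1-/- (n = 4) and Irp2-/- (n = 3) testis. Points are samples, and the bar beside them is the group mean with its SD. The Irp2-/- points lie below all others for Pcsk1, Gm10324, Trpv1, Apoc1, Plac9b and the sum, and above all others for Rab4a and Ttc22.

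All 7 genes passed edgeR's filter on low counts in this comparison, and all 7 were past an adjusted p of 0.05 (2 higher, 5 lower), as were 1.21% of the 16154 genes tested (0.371% higher, 0.842% lower). Ttc22 passed that filter on the Irp2-/- samples alone, and Pcsk1 and Gm10324 on the WT samples alone. All 7 also had groups that did not overlap, beside 9.23% of all tested genes. Since this contrast chose them, neither count says anything further about the genes. Against Irp1-/- testes, a comparison that uses the same Irp2-/- samples, the log2 fold changes were -5.55 for Pcsk1, -3.24 for Gm10324, -2.89 for Trpv1, -1.81 for Plac9b, -1.74 for Apoc1, 1.11 for Rab4a and 2.38 for Ttc22. All 7 again did not overlap (15.2% of 16281 tested genes) and were past the adjusted p of 0.05 (4.69%), which says nothing further either, since the Irp2-/- samples chose the genes and Ttc22, Pcsk1 and Gm10324 passed the filter through the group where they were high.

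**Figure D2:**
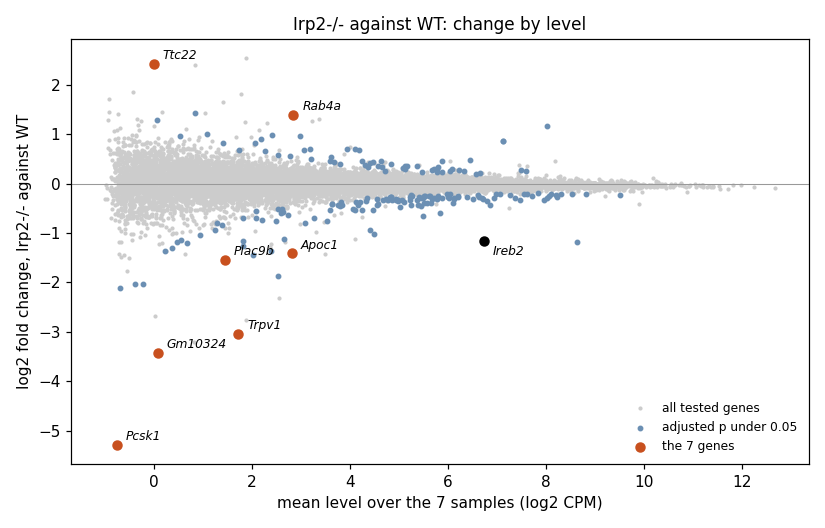
Fitted log2 fold change of Irp2-/- against WT testes (vertical axis) by mean level over the 7 samples (horizontal axis, log2 CPM) for every tested gene in grey, genes with an adjusted p under 0.05 in blue, the 7 genes in orange and Ireb2 in black. Pcsk1 lies lowest at -5.28, and among the 7 Rab4a and Ttc22 lie above 0.

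By level per length in WT testes, in CPM per kilobase of GENCODE exon, Apoc1 was highest at 13.0 ± 1.43 (SD, n = 4). Plac9b followed at 2.93 ± 0.892 and Rab4a at 2.31 ± 0.348, and the samples of these genes overlapped. Trpv1 was at 1.45 ± 0.088, Gm10324 at 0.910 ± 0.166, Pcsk1 at 0.160 ± 0.042 and Ttc22 at 0.088 ± 0.0566 (SD, n = 4 for each). Pcsk1 and Ttc22 overlapped between samples, and the other neighbours in this order did not. In Irp2-/- testes the order was Rab4a at 6.06 ± 0.0485, Apoc1 at 4.91 ± 1.08, Plac9b at 1.00 ± 0.357, Ttc22 at 0.474 ± 0.0125, Trpv1 at 0.178 ± 0.0773, Gm10324 at 0.0818 ± 0.00716 and Pcsk1 at 0.00313 ± 0.00542 CPM per kilobase (SD, n = 3 for each). In the Irp2-/- testes the Rab4a and Apoc1 samples overlapped, whereas in WT testes Apoc1 lay above Rab4a in every sample. Ttc22 stood above Trpv1 in every Irp2-/- sample and below it in every WT sample.

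The genes were named for their difference in Irp2-/- testes, but their levels in all groups were known by then, and the WT samples are shared, so the comparison of Irp1-/- with WT is not independent of the choice. Of the 7 genes, 6 were tested in Irp1-/- against WT and none was past an adjusted p of 0.05 in edgeR, nor were the 4 to which DESeq2 gave an adjusted p (it gave none to Pcsk1 and Gm10324), beside 1.02% of all 16002 tested genes, and 1 had an unadjusted p under 0.05, beside 12.1% of all. That gene was Apoc1, at 12.15 ± 0.506 CPM in Irp1-/- and 9.68 ± 1.06 CPM in WT testes (SD, n = 4 for each). Every Irp1-/- testis was above every WT testis, as for 3.21% of all tested genes, and the log2 fold change was 0.33 (95% interval 0.14 to 0.51, adjusted p = 0.0864, edgeR). Without WT replicate 1, the highest WT sample, it was 0.40 with an adjusted p of 0.0328 (edgeR), and over all settings tried the adjusted p ranged from 0.0328 to 0.398.

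The other tested genes overlapped between Irp1-/- and WT testes. Rab4a had a log2 fold change of 0.28 (95% interval -0.01 to 0.57, adjusted p = 0.438, edgeR) and Plac9b of 0.26 (-0.11 to 0.64, adjusted p = 0.613). Pcsk1 had 0.24 (-0.35 to 0.83, adjusted p = 0.806), Trpv1 -0.15 (-0.43 to 0.12, adjusted p = 0.701) and Gm10324 -0.19 (-0.64 to 0.27, adjusted p = 0.807). Ttc22 was too low for the count filter, with 0.288 ± 0.145 CPM in Irp1-/- and 0.292 ± 0.188 CPM in WT testes (SD, n = 4 for each). Each of the 6 intervals ended short of a log2 change of 1 in either direction.

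**Figure D3:**
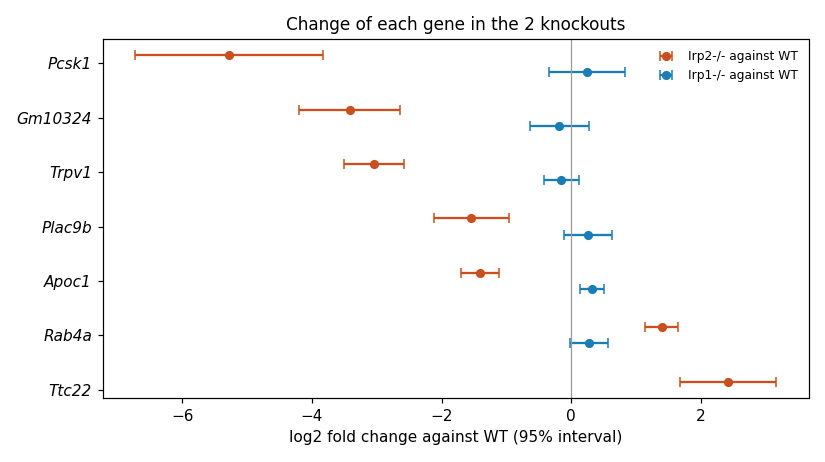
Fitted log2 fold change against WT (horizontal axis) with its 95% interval for each gene, in Irp2-/- (orange) and in Irp1-/- testes (blue). The Irp1-/- values lie between -0.19 and 0.33, and Ttc22 has no Irp1-/- value because it did not pass the count filter there. The interval of Pcsk1 in Irp2-/- testes rests on a single count and on edgeR's prior count, and sets no limit on its fold.

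The genes around each of the 7 were then examined, since position beyond the chromosome was not used to choose them. Of the 70 tested genes made up by the 5 nearest on either side, 2 (2.86%) had an adjusted p under 0.05 in Irp2-/- against WT, beside 1.21% of all tested genes. These were Plac9a and Mroh7 (log2 difference -0.20, adjusted p = 0.0216, edgeR), the third tested gene after Ttc22. Plac9a holds 96.6% of the 50-base stretches of Plac9b, so its call is not separate from the choice of Plac9b. The median absolute log2 fold change of the 70 was 0.0847, beside 0.0708 over all tested genes. With 20 genes on either side, 5 of 280 (1.79%) were called, Plac9a again among them. Apoe, which encodes another apolipoprotein and starts 6.8 kb from Apoc1, averaged 65.2 ± 4.98 CPM in the 3 Irp2-/- and 74.2 ± 5.17 CPM in the 4 WT testes (SD), a log2 difference of -0.18 (adjusted p = 0.206, edgeR).

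Next to the 2 genes that were higher, Ccsap and Rhou beside Rab4a had log2 fold changes of 0.07 (adjusted p = 0.764, edgeR) and 0.11 (adjusted p = 0.767), and Pars2 beside Ttc22 had 0.30 (adjusted p = 0.829). Shpk and Aspa beside Trpv1 had -0.08 (adjusted p = 0.96, edgeR) and -0.43 (adjusted p = 0.472). Cast and Ell2 were the nearest tested genes on either side of Pcsk1, with starts at -397.1 and 618.1 kb from its start. They had log2 fold changes of -0.06 (adjusted p = 0.805, edgeR) and -0.15 (adjusted p = 0.18). Zfp369 and 2410141K09Rik, the nearest tested genes on either side of Gm10324, had starts at -833.1 and 307.7 kb from its start. Their log2 fold changes were 0.21 (adjusted p = 0.898, edgeR) and -0.18 (adjusted p = 0.918). However, 2410141K09Rik is the gene of the count table that shares 50-base stretches with Gm10324 (139 of 1387), so the counts of these genes are not fully separate. Clptm1, on the other side of Apoc1 from Apoe, had -0.04 (adjusted p = 0.876, edgeR). Tmem254b, the gene after Plac9b, had -0.96 (adjusted p = 0.201, edgeR). In Irp1-/- against WT, 2 of the 70 neighbours (2.86%, Ccsap and Anxa11) were called, and Ccsap, a centriole and spindle protein gene, fell by 0.21 on the log2 scale (adjusted p = 0.00651, edgeR).

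**Figure D4:**
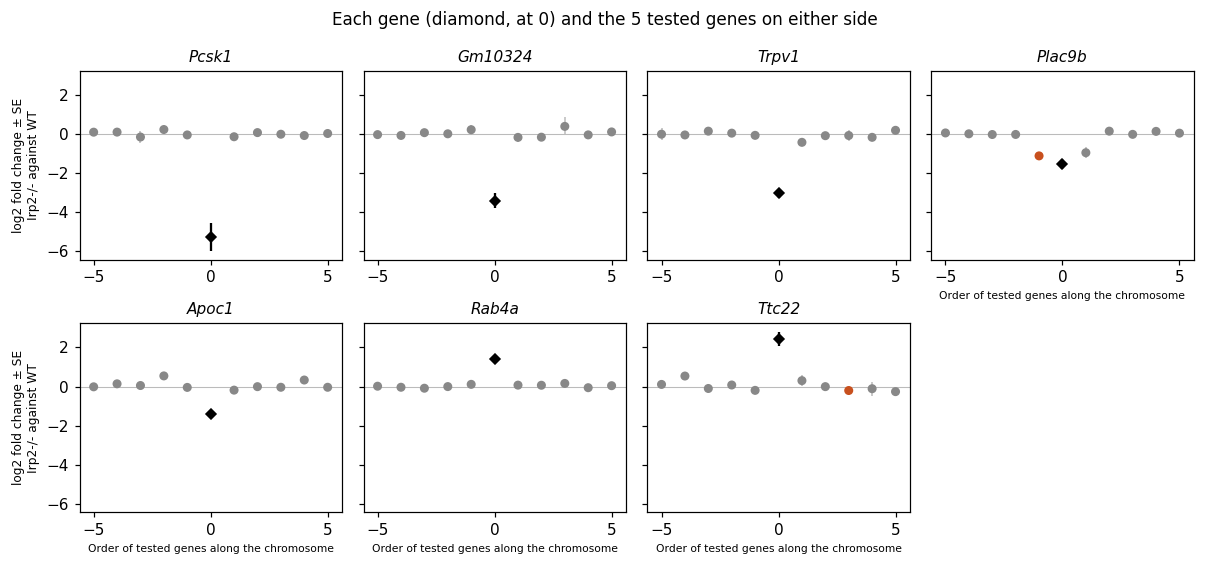
Log2 fold change (± SE) of Irp2-/- against WT for each gene (black diamond at 0) and the 5 tested genes on either side in their order along the chromosome. Orange points are neighbours with an adjusted p under 0.05 (Plac9a and Mroh7) and grey points are the others.

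Other genes of the same pathways were taken from lists. Among sensory cation channels related to Trpv1, 2 further genes were tested in Irp2-/- against WT and none was called by edgeR or DESeq2. Trpm8, the cold and menthol channel, differed by -0.44 on the log2 scale (unadjusted p = 0.000786, adjusted p = 0.0593, edgeR) and Trpv4, an osmosensitive channel, by 0.05 (adjusted p = 0.986). Of 10 other apolipoprotein and lipoprotein genes tested, 1 rose and none fell. This was Lrp1, a receptor that takes up lipoproteins, which averaged 56.2 ± 1.76 CPM in the 3 Irp2-/- and 46.6 ± 3.68 CPM in the 4 WT testes (SD) (log2 difference 0.27, adjusted p = 0.0184, edgeR). The median of the 10 was 0.116, beside 0.00332 over all tested genes. None of 17 other genes of endosome recycling was called by edgeR or DESeq2 (median 0.0321), and 1 had an unadjusted p under 0.05. The transferrin receptor gene Tfrc was at 18.1 ± 0.726 CPM in the 3 Irp2-/- and 17.3 ± 1.38 CPM in the 4 WT testes (SD, with a log2 difference of 0.07, adjusted p = 0.902, edgeR).

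None of 12 other genes of prohormone processing was called by edgeR or DESeq2 in Irp2-/- against WT (median 0.0387), and 2 had an unadjusted p under 0.05. Pcsk4, the convertase of germ cells, was the most abundant of the convertases named here at 161.5 ± 0.911 CPM in Irp2-/- and 160.4 ± 3.84 CPM in WT testes (adjusted p = 0.97, edgeR). Pcsk1n, which encodes an inhibitor of prohormone convertase 1, averaged 9.51 ± 1.29 CPM in Irp2-/- and 12.4 ± 0.688 CPM in WT testes (SD, with a log2 difference of -0.37, adjusted p = 0.0833, edgeR). In Irp1-/- testes 2 of the 12 fell, Pcsk1n by 0.38 on the log2 scale (adjusted p = 0.0404, edgeR) and Pcsk7, a convertase of many tissues, by 0.26 (adjusted p = 0.0143), of which DESeq2 called Pcsk7. In all, 6 of the 12 had an unadjusted p under 0.05 there, and the other 4, named after their values were seen, were Pcsk4 (log2 difference 0.08, adjusted p = 0.409, edgeR), Pcsk5 (0.39, adjusted p = 0.374), Cpe (0.22, adjusted p = 0.23) and Chga (0.23, adjusted p = 0.36). No further gene of the sensory channel, lipoprotein and recycling lists was called there by edgeR or DESeq2, with 0, 3 and 1 at an unadjusted p under 0.05, while DESeq2 gave no adjusted p to 1 channel and 4 lipoprotein genes. Of 6 corepressor genes that work with KRAB zinc finger proteins, 0 were called by edgeR or DESeq2 in either knockout against WT and 0 had an unadjusted p under 0.05 (median 0.00845 in Irp2-/- against WT). The 3 iron regulatory genes listed were Ireb2, Aco1 and Fbxl5, which encodes the ligase that degrades Irp2, and Fbxl5 had a log2 fold change of -0.13 in Irp2-/- testes (adjusted p = 0.306, edgeR).

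Markers of the cell types of the testis gave 1 call among 54 tested genes in Irp2-/- against WT, beside 1.21% of all tested genes. The gene was Vwf, of endothelial cells, higher by 0.37 on the log2 scale (adjusted p = 0.0127, edgeR), and the summed level of the 5 endothelial markers was 37.6 to 40.7 CPM in Irp2-/- and 32.5 to 34.4 CPM in WT testes, which did not overlap, although the median log2 difference of the 5 was -0.03. The summed ranges of Irp2-/- and WT testes overlapped for Leydig, Sertoli, peritubular myoid and blood cells, for spermatogonia, spermatocytes and spermatids, and for macrophages, a known source of Apoc1, which had 65.4 to 69.6 CPM beside 55.9 to 68.7 CPM in WT. The median log2 difference of the 6 macrophage markers was nonetheless 0.236, beside 0.00332 over all tested genes. Of these 6, 1 had an unadjusted p under 0.05 and 0 were called by edgeR. Markers of elongating spermatids summed to 15600 to 19000 CPM in Irp2-/-, 18600 to 19400 CPM in WT and 17700 to 20700 CPM in Irp1-/- testes. The median log2 difference of these 6 markers in Irp2-/- against WT was -0.098. Of the 6, 1 had an unadjusted p under 0.05 and 0 were called by edgeR. Epididymis markers summed to at most 0.503 CPM in any sample, and of the blood markers Hbb-bs was at 0 in all samples. In Irp1-/- against WT, 2 of 55 markers were called, the Sertoli cell gene Clu (0.16, adjusted p = 0.0473, edgeR) and the Leydig cell gene Hsd17b3 (0.37, adjusted p = 0.0232), beside 1.02% of all tested genes. Leydig markers summed to 932 to 1130 CPM in Irp1-/- and 696 to 978 CPM in WT testes, and Sertoli markers to 1000 to 1120 CPM and 896 to 968 CPM. The part of these cell types in the levels of the 7 genes was not tested.

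Genes with the pattern most like each of the 7 were found by the root mean square difference of mean-centred log2 CPM over the 11 samples, among 16406 genes. Klk1b21, a kallikrein-related serine protease gene, was nearest to Trpv1 (0.606, beside a root mean square of 1.3 for Trpv1 itself) and to Gm10324 (0.452), and second to Pcsk1 (0.592), whose nearest was the related Klk1b22 (0.566). Gm10451 was nearest to Apoc1 (0.257) and Plac9b (0.335) and second to Trpv1 (0.683) and Gm10324 (0.537). Gm7444 was second for Apoc1 (0.272) and Klk1b24 for Plac9b (0.384). Srp54b, a copy of the gene for a signal recognition particle subunit, was nearest to both Rab4a (0.241) and Ttc22 (0.613), followed by 1700047I17Rik2 (0.278) and Dnajc22 (0.662). These distances are a description, since the Irp2-/- samples on which the 7 genes were chosen entered them.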

How the data were processed

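The authors deposited raw read counts per gene, made from 50-base paired-end reads of stranded poly(A) libraries with the nf-core RNA-seq pipeline v3.7 against mm10 with an iGenomes annotation. The counting tool and its strand setting are not given in the sources used here. Genotypes came from the labels. A letter in the column headers (R in Irp1-/- replicate 6, otherwise L) has no stated meaning and was not used. The labels number the samples within a genotype, and p-values measure the spread between these samples.

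Counts were tested over all genes with edgeR 4.0.16 in R 4.3.3 (filterByExpr with a minimum of 10, TMM, robust quasi-likelihood test, Benjamini-Hochberg adjustment), each comparison fitted on its 2 genotypes, and the code was tested on simulated data. CPM used TMM-scaled library sizes. Standard errors were derived from the F statistic. Of 24411 symbols, 23191 matched RefSeq by current and 1095 by older symbol, and 125 had no single match. The log2 CPM for pattern likeness had a prior count of 2. Shared 50-base stretches were searched in all GENCODE transcripts, and loops in those of protein-coding type. Genes that shared stretches were looked up in the count table by their GENCODE symbol only.

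The 7 genes, the lists and the named genes (targeted genes, nearest neighbours, the 2 most alike genes of each, called list and marker genes, near copies) were chosen with earlier results of these data known. Alternatives were RLE scaling, other count filters, DESeq2 1.42.0, a fit of all 11 samples, a replicate block and leaving out each replicate. Some genes that this naming rule covers are not reported here.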

Additional observations from a re-analysis of the deposited data

Results flagged for a closer look

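Apoc1 lay on opposite sides of WT in the 2 knockouts. Every Irp1-/- testis was above every WT testis (log2 fold change 0.33, which did not pass the test, adjusted p = 0.0864, edgeR), and every Irp2-/- testis was below. The fitted change of Irp2-/- against Irp1-/- was -1.74 on the log2 scale, a description, because the gene was chosen on the Irp2-/- samples. A test independent of that choice was not run. Among 22 groups of 4 samples searched (the 7 genes, Plac9a, Rab4b, Ireb2 and Aco1 in WT and Irp1-/-), none held a sample far from the others.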

How the results depend on the processing

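With at least 10 counts required in every sample, 3 of the 7 genes (Apoc1, Rab4a, Plac9b) could be tested and 3 were called against WT and 3 against Irp1-/-, as the others fall under that filter. Leaving out a replicate, 6 to 7 were called in Irp2-/- against WT, with Plac9b lost without Irp2-/- replicate 1 (adjusted p = 0.0508, edgeR), and 0 to 1 in Irp1-/- against WT (Apoc1 without WT replicate 1). Over all genes, leaving out a replicate gave 118 to 223 calls in Irp2-/- against WT (196 with all, 118 without Irp2-/- replicate 2), 55 to 216 in Irp1-/- against WT (164 with all, 55 without Irp1-/- replicate 1, 84 without WT replicate 2, 102 without Irp1-/- replicate 6, 106 without WT replicate 4) and 414 to 763 in Irp2-/- against Irp1-/- (414 without Irp2-/- replicate 2, 471 without Irp1-/- replicate 1). Same-numbered samples showed little shared deviation (correlations -0.00989 to 0.0778), and the numbers were not used as a pairing in the main fits. Deviations from means of so few samples cannot show that no pairing exists. With the replicate block, calls in Irp1-/- against WT were 439 (2 replicate numbers were shared), and the uncalled values of Plac9b (-0.032) and Pcsk1 (-0.27) changed sign there. Each unshared number takes a term of its own in that fit, so the contrast rests on replicates 1 and 2 of each genotype alone. Why more genes were called there was not tested. With 20 neighbours on either side, 1.79% were called against WT in Irp2-/- (Plac9a included) and 1.43% in Irp1-/-. Pcsk1, Ttc22 and Gm10324 rest on few counts, and for Pcsk1 depth allows no upper limit on the fold beyond its counting interval.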
